A study of Mus musculus with 12 samples.

Results

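Insulin, amylin and the proteins that process their precursors were followed at the RNA level in mouse pancreatic islets. The members were the 9 entries of the islet expression table named Ins1, Ins2, Iapp, Pcsk1, Pcsk2, Cpe, Pcsk1n, Scg5 and Pam, out of 24078 entries. They were picked out by name for their role, and all 9 were among the 21701 transcripts that were tested, those whose mean RPKM reached 0.1. RPKM, the reads of a gene scaled by its transcript length and by the mapped reads of its library, is a level per length. It may be set side by side between genes only roughly, since the lengths used are not given in the sources used here.

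The study compared islets of wild-type mice (WT), mice heterozygous for a disrupted Wfs1 gene (Wfs1HZ) and mice homozygous for it (Wfs1KO), with 4 animals of each genotype and a library from each animal. In the Wfs1tm1Koks allele most of exon 8 is replaced by a LacZ cassette, so the loss is constitutive and not limited to a cell type. All animals were male F2 hybrids of 129S6/SvEvTac and C57BL/6, between 5 and 6 months old. In every group the islets were freed by collagenase, picked by hand and kept overnight in a high-glucose medium with serum before RNA was taken. The study also assayed insulin and proinsulin protein in islets of these genotypes, and those assays are not analysed here. The question addressed here is whether RNA of the hormones, or of the proteins that turn proinsulin into insulin, differed between the genotypes.

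Proinsulin is folded in the endoplasmic reticulum of beta cells and packed into secretory granules, where the prohormone convertases PC1/3 (from Pcsk1) and PC2 (from Pcsk2) cut it at pairs of basic residues. Carboxypeptidase E (from Cpe) then trims the basic residues left behind, and the same enzymes act on the precursor of amylin, which is stored and released with insulin. ProSAAS (from Pcsk1n) inhibits PC1/3, 7B2 (from Scg5) is the binding partner that PC2 needs to mature, and peptidylglycine alpha-amidating monooxygenase (from Pam) amidates the C-terminus of peptides such as amylin.

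Promoter sequence is shown for both hormones for which it was at hand and for the convertase whose RNA moved most closely with theirs across animals. The sequences are RefSeq, build GRCm38.p6, the 250 bases before the annotated start, read 5′ to 3′ on the plus strand, which is the coding strand of all the genes shown. Capitals mark matches on either strand to TAAT, the core read by homeodomain factors such as PDX1, to CANNTG, the E-box, and to TGACG, part of the cAMP response element.
Ins1 promoter, chr19:52264047-52264296: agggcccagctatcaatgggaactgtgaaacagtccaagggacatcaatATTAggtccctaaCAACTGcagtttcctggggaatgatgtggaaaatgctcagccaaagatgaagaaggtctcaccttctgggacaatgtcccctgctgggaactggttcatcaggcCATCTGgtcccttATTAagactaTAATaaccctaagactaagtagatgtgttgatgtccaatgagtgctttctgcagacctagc
Iapp promoter, chr6:142298175-142298424: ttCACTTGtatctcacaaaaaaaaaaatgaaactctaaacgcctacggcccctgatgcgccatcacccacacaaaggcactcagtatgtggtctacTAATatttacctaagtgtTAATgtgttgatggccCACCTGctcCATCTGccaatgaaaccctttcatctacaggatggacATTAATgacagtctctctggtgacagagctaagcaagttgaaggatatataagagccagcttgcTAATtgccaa
Pcsk1 promoter, chr13:75089607-75089856: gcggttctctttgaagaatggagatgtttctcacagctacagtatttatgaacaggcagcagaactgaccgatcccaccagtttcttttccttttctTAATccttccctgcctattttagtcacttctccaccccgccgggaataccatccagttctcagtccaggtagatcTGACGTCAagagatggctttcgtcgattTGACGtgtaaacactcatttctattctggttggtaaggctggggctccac
Overlapping matches were each counted, so that a palindromic stretch counts on both strands. The Ins1 window held 3 matches to TAAT, 2 to CANNTG and 0 to TGACG. The Iapp window held 5 matches to TAAT, 3 to CANNTG and 0 to TGACG. The Pcsk1 window differed from both, with 1 match to TAAT, 0 to CANNTG and 3 to TGACG. Among 32851 mouse promoter windows of the same length, 54.9% held TAAT, 66.2% held CANNTG and 17.8% held TGACG, so the first pair of motifs is common and the third is less so. A match describes the letters and is not a measured binding site. The start used in these islets was not measured, so a window may miss promoter sequence nearer to it. Of the 9 members, 7 had a promoter entry, while Ins2 and Cpe had none.

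Several libraries stood apart in ways that touch the members. The number of reads behind the RPKM values, estimated from the steps of the lowest values of short RNA genes, ran from 2191000 in Wfs1HZ replicate 2 to 9557000 in Wfs1KO replicate 1. The paper reports far more reads per sample, and how many of them entered the RPKM values is not given in the sources used here. Wfs1 itself, the labelled gene, read 24.85 to 33.94 RPKM in WT, 4.69 to 16.43 in Wfs1HZ and 2.45 to 6.61 in Wfs1KO, in the order of the labels, with Wfs1HZ replicate 2 inside the Wfs1KO range. Its Wfs1KO to WT difference had an adjusted p of 0.04 by limma, which became 0.0666 to 0.314 when an animal was left out and 0.00157 to 0.541 under 11 other fits, 6 of them over 0.05, the highest with a replicate block. The summed RPKM of 14 acinar (digestive enzyme) markers ran from 54351 to 122160 in WT, 9211 to 309406 in Wfs1HZ and 8649 to 281269 in Wfs1KO. The lowest of these in the mutant groups were Wfs1HZ replicate 2 and Wfs1KO replicate 4, which also had the lowest insulin RNA of their groups. All 14 acinar markers were tested, and 2 of 14 had a higher mean log2 level in Wfs1KO than in WT.

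The hormone transcripts were among the most abundant in the islets, and their genotype groups overlapped in every comparison. By mean RPKM over the 12 samples Ins1 ranked 3, Ins2 ranked 4 and Iapp ranked 7 in the whole table. Ins1 (chr19:52264297-52265476, plus strand, GENCODE M21 on mm10) averaged 46382 ± 35671 RPKM in WT, 36569 ± 29989 in Wfs1HZ and 29907 ± 18712 in Wfs1KO (SD, n = 4 each). Ins2 (chr7:142678656-142743381, minus strand) averaged 45517 ± 30858, 38819 ± 29737 and 20344 ± 10835 RPKM in the same order. Iapp (chr6:142298423-142303961, plus strand), which encodes amylin, averaged 8320 ± 4983, 4902 ± 3131 and 6085 ± 2394 RPKM.

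Within each genotype the hormones differed several-fold from animal to animal. Ins1 read 57662, 13075, 23203 and 91587 RPKM in WT replicates 1 to 4. In Wfs1HZ it read 18885, 4981, 51888 and 70521 RPKM, and in Wfs1KO 48928, 42367, 18520 and 9816 RPKM. The 3 groups overlapped widely, and the lowest and highest animals of all, Wfs1HZ replicate 2 and WT replicate 4, were 18.4-fold apart.

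Ins2 read 67080, 15292, 23011 and 76687 RPKM in WT. It read 21237, 6423, 68564 and 59053 RPKM in Wfs1HZ, and 33525, 24433, 14220 and 9199 RPKM in Wfs1KO. Every Wfs1KO animal lay below the higher pair of WT animals, but 2 of the 4 lay above the lowest WT animal, so that these groups overlapped too. Ins2 spanned 11.9-fold over all animals.

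Iapp read 13725, 3575, 4633 and 11349 RPKM in WT, 3719, 1059, 6865 and 7967 RPKM in Wfs1HZ, and 8829, 7010, 5273 and 3229 RPKM in Wfs1KO. The animals high in insulin RNA were high in amylin RNA as well, and Wfs1HZ replicate 2 was again lowest. The islets were sequenced in bulk, so fewer beta cells and less hormone RNA per beta cell cannot be told apart.

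**Figure D1:**
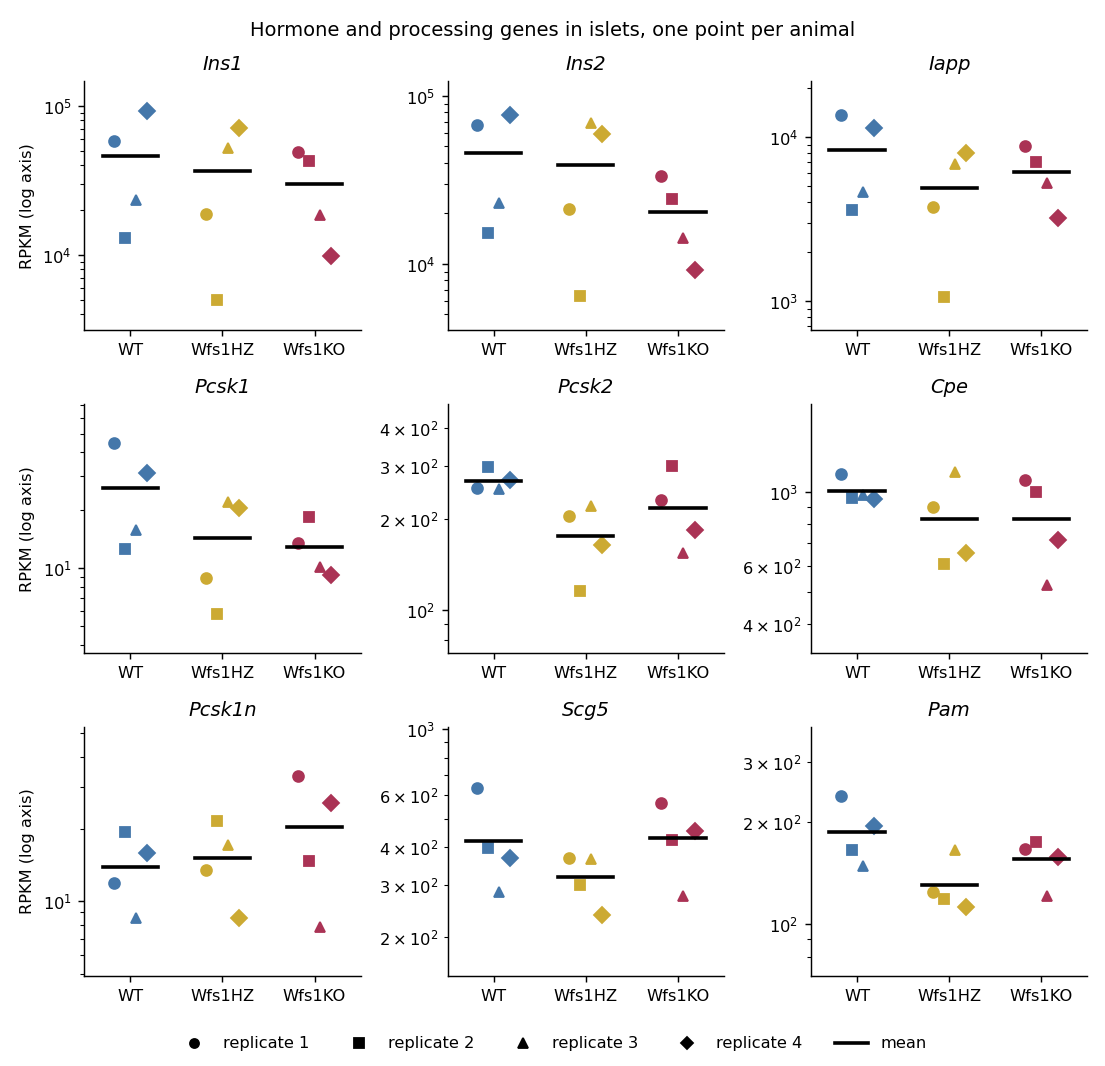
RPKM on log axes (vertical) of the 9 members in each animal, by genotype (horizontal), with replicates 1 to 4 as circle, square, triangle and diamond and the group mean as a bar. Hormone values spread by at least 2.73-fold within each genotype and Pcsk1 by 3.53-fold, 3.83-fold and 1.99-fold in WT, Wfs1HZ and Wfs1KO, while Pcsk2 and Cpe lie within 1.18-fold and 1.19-fold in WT and spread further in both mutant groups.

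In the fit over all 21701 transcripts, the Wfs1KO to WT difference of Ins1 was -0.52 and that of Ins2 was -1.02 on the log2(RPKM + 0.1) scale. The limma standard errors were 2.25 and 2.04, against 0.83 and 0.71 when computed from the animals of each gene alone. Limma draws the error toward a trend with level that is fitted over all transcripts. Other highly abundant transcripts had large limma errors too, 4.59 against 0.61 alone for Gcg and 3.32 against 1.11 for Ctrb1. The limma intervals and adjusted p-values of the hormones thus rest on that trend more than on the animals. The 95% interval of the Ins2 difference ran from -5.62 to 3.58, with a Benjamini-Hochberg adjusted p of 0.973 by limma. The exact two-sided permutation test, which does not use the other transcripts, gave p = 0.2 for Ins2 and 0.54 for Ins1, where 4 against 4 animals cannot go below 0.029. For Iapp the difference was -0.32, with a permutation p of 0.57.

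Against Wfs1HZ the Wfs1KO islets differed by 0.03 in Ins1, -0.59 in Ins2 and 0.57 in Iapp. Wfs1HZ differed from WT by -0.55 in Ins1, -0.43 in Ins2 and -0.90 in Iapp. In each of these the groups overlapped, and the exact permutation p-values were 0.37 to 1. Of the 6 hormone differences that involve Wfs1HZ, 4 changed sign without its replicate 2. Without that animal Wfs1HZ differed from WT by 0.21 in Ins1 and 0.27 in Ins2, and Wfs1KO differed from Wfs1HZ by -0.73 in Ins1 and -0.05 in Iapp. The Ins1 difference between Wfs1KO and Wfs1HZ also changed sign without Wfs1HZ replicate 1 or Wfs1KO replicate 1 or 2, at -0.09, -0.29 and -0.23. The Wfs1KO to Wfs1HZ difference in Ins2 stayed negative with any animal left out, at -1.29 to -0.15, as did the Wfs1HZ to WT difference in Iapp, at -1.25 to -0.28.

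The convertases stood at very different levels. Pcsk1 (chr13:75089826-75134861, plus strand) averaged 26.1 ± 14.8 RPKM in WT, 14.3 ± 8.2 in Wfs1HZ and 12.8 ± 4.14 in Wfs1KO, and ranked 3111 in mean RPKM. Pcsk2 (chr2:143546156-143816285, plus strand) averaged 267 ± 21.1, 176 ± 46.9 and 217 ± 63.3 RPKM, and ranked 104. In all 12 animals the Pcsk2 level was above the Pcsk1 level.

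Pcsk1 read 44.54, 12.61, 15.75 and 31.37 RPKM in WT. It read 8.89, 5.77, 22.12 and 20.5 RPKM in Wfs1HZ, and 13.54, 18.41, 10.17 and 9.26 RPKM in Wfs1KO. WT replicates 1 and 4, the animals with most insulin RNA in their group, held the highest Pcsk1 levels, while WT replicates 2 and 3 lay within the Wfs1KO range. The Wfs1KO to WT difference was -0.89 (limma SE 0.41, 95% interval -1.81 to 0.03), with an unadjusted limma p of 0.0575, an adjusted p of 0.879 and an exact permutation p of 0.14. The Wfs1HZ to WT difference was of the same size, -0.89, with a permutation p of 0.2, and Wfs1KO and Wfs1HZ differed by 0.00. Precision was lowest for Pcsk1 in Wfs1HZ replicate 2, where its level corresponded to about 12.6 reads per kilobase of transcript.

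Pcsk2 read 252.45, 296.19, 250.74 and 269.51 RPKM in WT. In Wfs1HZ it read 205.19, 115.39, 220.11 and 164.64 RPKM, and in Wfs1KO 230.51, 299.75, 154.05 and 184.67 RPKM. Every Wfs1HZ animal lay below every WT animal, whereas in Wfs1KO replicate 2 held the highest value of the study and the other animals lay below WT. The Wfs1HZ to WT difference was -0.64 (limma SE 0.26, 95% interval -1.22 to -0.06), with an exact permutation p of 0.029, the smallest this design allows, an unadjusted limma p of 0.0337 and an adjusted limma p of 1. It was the only member whose groups did not overlap in that comparison, 1 of 9, where 1.66% of all tested transcripts did not overlap in either direction and 1.08% lay lower without overlap. Left-out animals moved it between -0.76 and -0.45. The Wfs1KO to WT difference in Pcsk2 was -0.34 and that between Wfs1KO and Wfs1HZ was 0.30, with permutation p-values of 0.23 and 0.37. The antisense transcripts Pcsk2os1 and Pcsk2os2 overlap Pcsk2, and the use of strand in counting is not given in the sources used here.

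Cpe, encoding the carboxypeptidase, was the most abundant of the processing genes. It (chr8:64592542-64693054, minus strand) read 1134.31, 958.81, 981.12 and 953.01 RPKM in WT, 902.52, 608.26, 1147.02 and 655.83 RPKM in Wfs1HZ, and 1081.91, 996.1, 524.12 and 715.1 RPKM in Wfs1KO. The WT animals lay close together and each mutant group had both animals near the WT level and animals well under it. The group means were 1007 ± 85.9, 828 ± 248 and 829 ± 257 RPKM. The differences from WT were -0.32 in Wfs1HZ and -0.33 in Wfs1KO, with exact permutation p-values of 0.23 and 0.29.

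The RNA of the partner proteins and of the amidating enzyme overlapped between the genotypes in every comparison. Pcsk1n (chrX:7919822-7924410, plus strand), the PC1/3 inhibitor, read 11.96, 19.51, 8.53 and 15.83 RPKM in WT, 13.48, 21.63, 17.16 and 8.56 in Wfs1HZ, and 33.3, 14.71, 7.8 and 25.69 in Wfs1KO. The highest pair and also the lowest animal of the study were Wfs1KO animals, so the groups overlapped, and the Wfs1KO to WT difference was 0.41 with an exact permutation p of 0.46.

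Scg5 (chr2:113776362-113829121, minus strand), the PC2 partner, averaged 421 ± 150 RPKM in WT, 318 ± 63.4 in Wfs1HZ and 429 ± 119 in Wfs1KO. Its lowest and highest animals read 236.87 and 633.76 RPKM, in Wfs1HZ and WT, and the Wfs1KO to WT difference was 0.04 (permutation p = 0.86). Wfs1KO differed from Wfs1HZ by 0.41 and Wfs1HZ from WT by -0.37 (permutation p = 0.17 and 0.26).

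Pam (chr1:97795114-98095646, minus strand), the amidating enzyme, read 237.58, 165.05, 148.11 and 193.77 RPKM in WT, 124.07, 118.18, 165.38 and 112.07 RPKM in Wfs1HZ, and 166.28, 174.57, 120.47 and 157.47 RPKM in Wfs1KO. In Wfs1HZ 3 of the 4 animals lay below all WT animals and replicate 3 reached the WT range. The Wfs1HZ to WT difference was -0.51 with an exact permutation p of 0.086, and the Wfs1KO to WT difference was -0.26 with a permutation p of 0.29.

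Set together, 0 of the 9 members had an adjusted p under 0.05 by limma in any comparison. Among all tested transcripts the share called was 0.0138% (3 of 21701) for Wfs1KO against WT. For Wfs1KO against Wfs1HZ and for Wfs1HZ against WT 0 transcripts were called. The paper's own test, with edgeR, called more genes at that threshold in both comparisons that involve Wfs1KO. The 0 calls among the members are thus not evidence that their RNA was unchanged. At an unadjusted limma p under 0.05, 0 members were called in Wfs1KO against WT, where 5.64% of all transcripts (1225) were, 0 in Wfs1KO against Wfs1HZ, where 2.45% (532) were, and 1 of 9, Pcsk2, in Wfs1HZ against WT, where 2.35% (511) were. Groups did not overlap for 0 members in Wfs1KO against WT, beside 2.74% of all transcripts, and for 0 in Wfs1KO against Wfs1HZ, beside 1.43%. The unadjusted Pcsk2 call was lost without any single WT animal or without Wfs1HZ replicate 2, and under median-of-ratios scaling, a variance without trend or sample weights. In Wfs1KO against WT the unadjusted count was 1, Pcsk1, under 6 alternatives, namely a filter at 1 RPKM, quantile normalization, a robust trend, and without WT replicate 2, WT replicate 3 or Wfs1KO replicate 2. Pam was called beside or in place of Pcsk2 in Wfs1HZ against WT with a pseudocount of 1, with no filter, and without WT replicate 3 or Wfs1HZ replicate 3.

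The direction of the point estimates differed between comparisons. Against WT, 2 of 9 members had a higher mean log2 level in Wfs1KO (Pcsk1n and Scg5) and 1 of 9 in Wfs1HZ (Pcsk1n), with median differences of -0.33 and -0.51 over the members beside 0.07 and 0.04 over all tested transcripts. Between Wfs1KO and Wfs1HZ 7 of 9 were higher in Wfs1KO, with a median of 0.25 beside 0.04, and 5 of 9 under median-of-ratios scaling or sample weights. With sample weights 3 of 9 were higher than in WT in either mutant group. These comparisons share animals, so they are not independent of each other. Without Wfs1HZ replicate 2 the members' median for Wfs1KO against Wfs1HZ was -0.05 and that for Wfs1HZ against WT was -0.28, while the medians over all transcripts became 0.28 and -0.19.

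**Figure D2:**
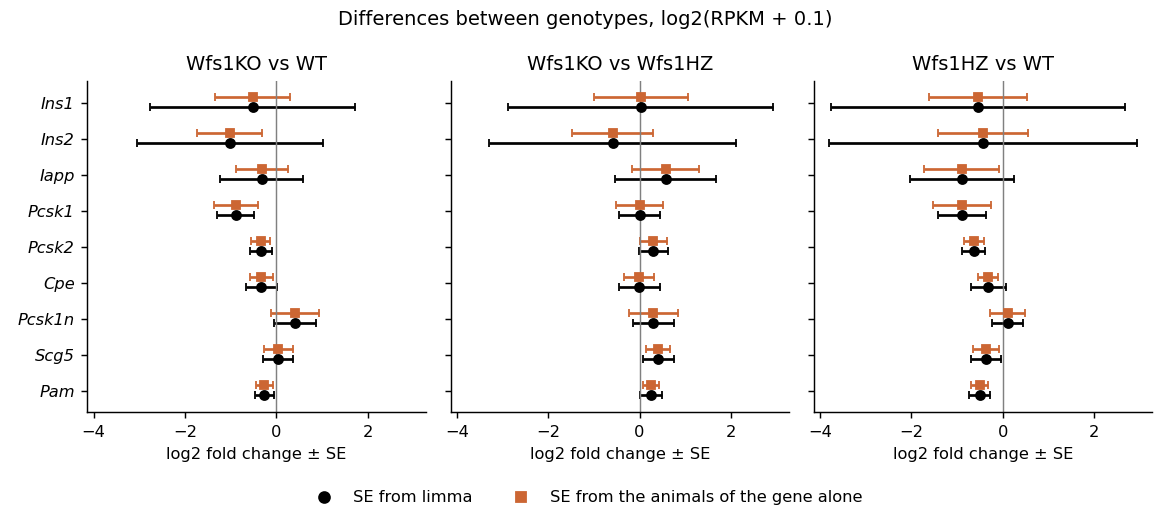
Difference between genotypes in log2(RPKM + 0.1) (horizontal) for the 9 members (vertical), with a panel for each comparison. Black circles carry the limma standard error and orange squares the standard error from the animals of the gene alone, which is 0.71 against 2.04 for Ins2 in Wfs1KO against WT.

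Ratios taken within a library do not change when a library is scaled by a constant. For 7 ratios in 3 comparisons, 21 tests in all, the lowest Benjamini-Hochberg adjusted value of the exact permutation p was 0.4. The ratio of Ins1 to Ins2 was 0.86, 0.855, 1.01 and 1.19 in WT, 0.889, 0.775, 0.757 and 1.19 in Wfs1HZ, and 1.46, 1.73, 1.3 and 1.07 in Wfs1KO. In Wfs1KO 3 of 4 animals lay above every other animal and replicate 4 lay within the WT and Wfs1HZ ranges. The group means were 0.979 ± 0.16, 0.904 ± 0.202 and 1.39 ± 0.28. The Wfs1KO difference in the log2 ratio was 0.50 from WT and 0.62 from Wfs1HZ, with exact permutation p-values of 0.057 in both.

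The split of reads between the insulin genes carries an uncertainty of its own. Their reference transcripts were 90.8% identical over 456 aligned bases, with a longest shared run of 56 bases. No stretch of 75 bases, the length of the forward read, was shared, but 37 of the 444 windows of 35 bases in Ins2, the length of the reverse read, occurred in Ins1 too (8.33%). How reads that fit both genes were assigned is not given in the sources used here. The level of the ratio also depends on the transcript lengths used for RPKM, whereas its differences between animals do not.

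The ratio of Iapp to the sum of Ins1 and Ins2 was 0.11, 0.126, 0.1 and 0.0674 in WT, 0.0927, 0.0929, 0.057 and 0.0615 in Wfs1HZ, and 0.107, 0.105, 0.161 and 0.17 in Wfs1KO. Every Wfs1KO animal lay above every Wfs1HZ animal, and both groups overlapped WT. The Wfs1KO to Wfs1HZ difference was 0.84 in log2, or 1.79-fold, with an exact permutation p of 0.029 that became 0.4 after adjustment over the 21 tests. From WT the Wfs1KO ratio differed by 0.43 (permutation p = 0.2).

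Relative to insulin RNA the processing enzymes were not separated by genotype. In bulk islets the cells that held the enzyme RNA were not resolved, so these are not ratios within beta cells. In Wfs1KO against WT the log2 ratio to Ins1 and Ins2 differed by -0.13 for Pcsk1, 0.41 for Pcsk2 and 0.42 for Cpe, with exact permutation p-values of 0.71, 0.6 and 0.51. Leaving out single WT animals moved the Pcsk2 value between 0.01, without replicate 4, and 0.91, without replicate 2. In Wfs1KO against WT the Pcsk1 difference of -0.89 seen in RPKM was thus -0.13 per unit of insulin RNA. In Wfs1HZ against WT, where it was also -0.89 in RPKM, it was -0.40 per unit of insulin RNA (exact permutation p = 0.4). That value stayed negative with any animal left out, at -0.77 to -0.20.

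The inhibitor to convertase ratio, Pcsk1n to Pcsk1, was 0.27, 1.54, 0.544 and 0.506 in WT, 1.51, 3.7, 0.777 and 0.42 in Wfs1HZ, and 2.45, 0.8, 0.769 and 2.76 in Wfs1KO. Of the WT animals 3 lay below every Wfs1KO animal and replicate 2 lay among them. The Wfs1KO to WT difference was 1.29 in log2, with an exact permutation p of 0.14. The ratio of Scg5 to Pcsk2 differed by 0.38 in the same comparison, with a permutation p of 0.23.

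**Figure D3:**
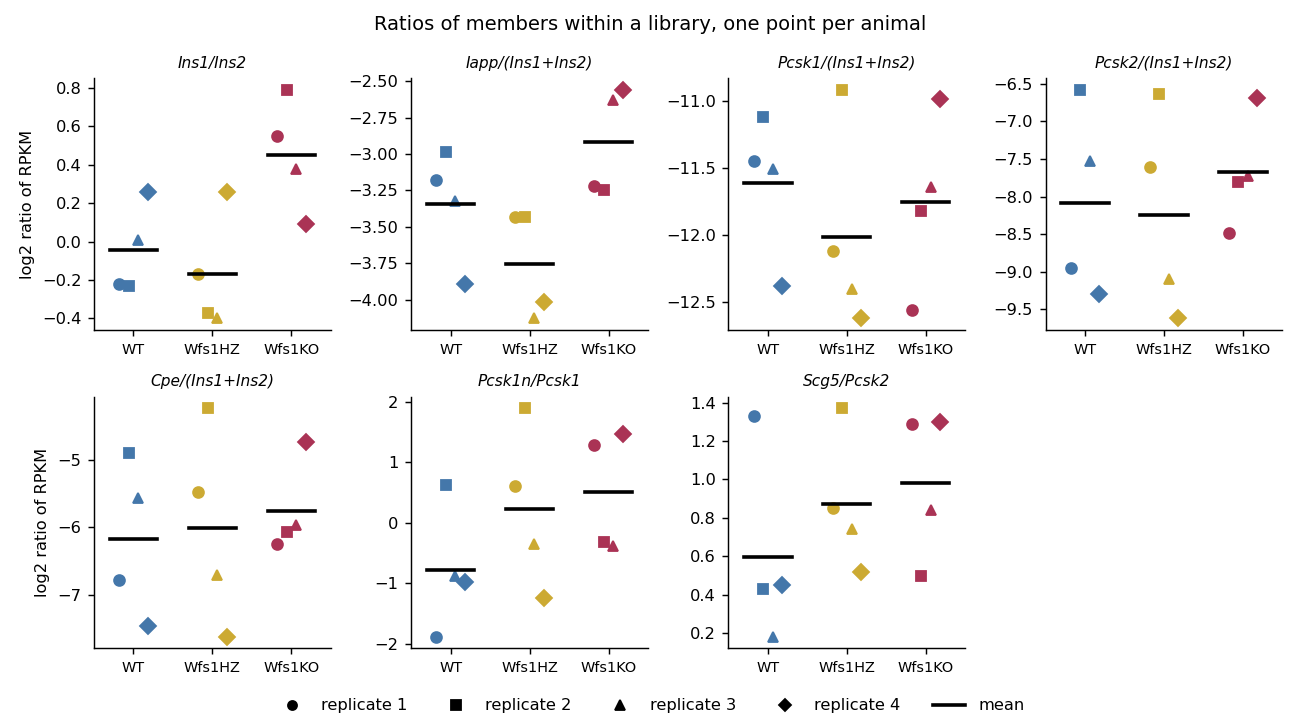
Log2 ratios of RPKM within each library (vertical) for 7 pairs of members, by genotype (horizontal), with replicates as circle, square, triangle and diamond and the mean as a bar. In Iapp/(Ins1+Ins2) the Wfs1KO points lie above all Wfs1HZ points, and in Ins1/Ins2 3 of the 4 Wfs1KO points lie above all others.

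Across the 12 animals the members ranged from genes that followed insulin RNA closely to genes that did not. The log2 levels of Ins1 and Ins2 correlated with Pearson r = 0.96 and Spearman rho = 0.97 (permutation p = 1e-05 for both, the smallest that 100000 resamples can give, and adjusted 6e-05 over 6 correlations). Without the outermost animals, Wfs1HZ replicate 2 and Wfs1KO replicate 4, r was 0.92, and within genotypes, as deviations from the genotype means, it was 0.99. The sum of Ins1 and Ins2 correlated with Iapp at r = 0.92 and rho = 0.92 (permutation p = 2e-05 and 9e-05, adjusted 6e-05 and 0.00027), at 0.88 without WT replicate 4 and Wfs1HZ replicate 2, and at 0.98 within genotypes.

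The mean log2 level of the 3 hormones correlated with that of the enzymes Pcsk1, Pcsk2 and Cpe at r = 0.83 and rho = 0.78 (permutation p = 0.001 and 0.0041, adjusted 0.002 and 0.0083). It was 0.66 (permutation p = 0.036) without WT replicate 4 and Wfs1HZ replicate 2, and 0.86 within genotypes. Taken singly, and as a description without a test, Pcsk1 had r = 0.90 with Ins2 and 0.87 with Ins1, whereas Pcsk2 had 0.48 and 0.51, Cpe 0.58 and 0.51, Pam 0.49 and 0.46, Scg5 0.18 and 0.19, and Pcsk1n -0.24 with both. Over the 12 animals Pcsk1 spanned 7.72-fold and Pcsk2 2.6-fold, beside 11.9-fold for Ins2.

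**Figure D4:**
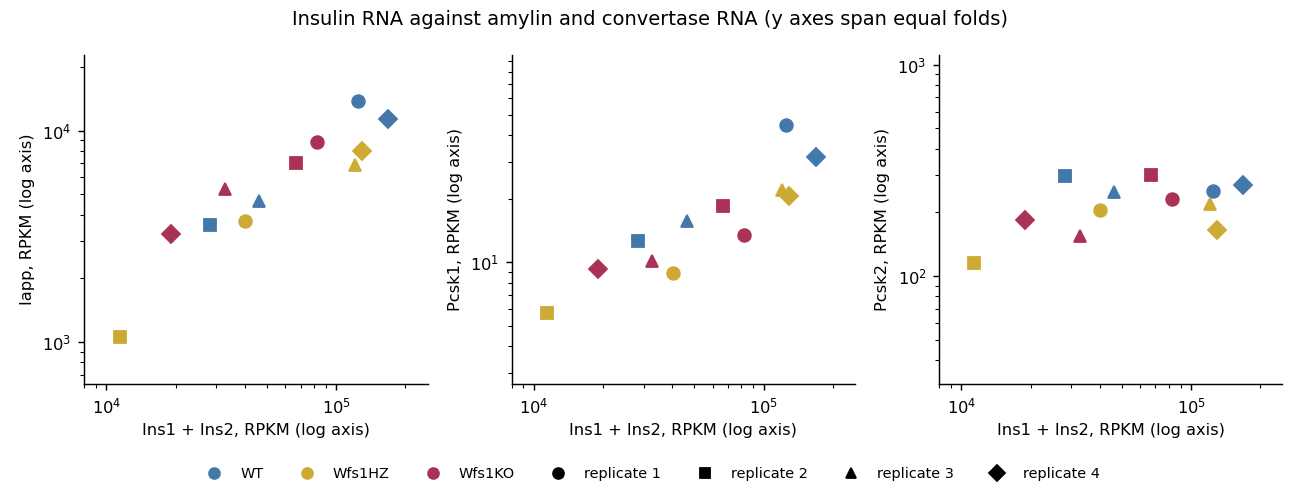
Sum of Ins1 and Ins2 RPKM (horizontal, log axis) against RPKM of Iapp, Pcsk1 and Pcsk2 (vertical, log axes of equal fold range), with a point for each animal coloured by genotype and shaped by replicate. Iapp and Pcsk1 climb with insulin RNA (r of Ins2 with Pcsk1 is 0.90), while Pcsk2 stays within 2.6-fold.

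The convertases and their partners were less closely tied. Pcsk1 and Pcsk1n had r = -0.27 and rho = -0.27 (permutation p = 0.39 for both). Pcsk2 and Scg5 had r = 0.50 and rho = 0.52 (permutation p = 0.097 and 0.09, adjusted 0.12 and 0.13), and 0.34 without Wfs1HZ replicate 2 and Wfs1KO replicate 3. As a description, Pcsk2 and Cpe had r = 0.81 and Scg5 and Pam 0.80. All of these values come from RPKM within shared libraries, so that a library rich in other transcripts lowers every member at once.

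**Figure D5:**
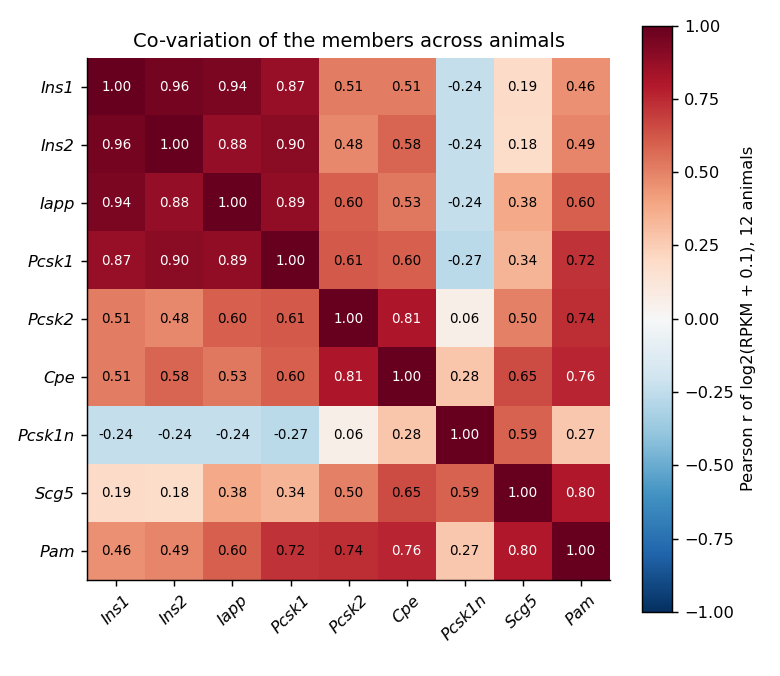
Pearson r between the log2(RPKM + 0.1) levels of each pair of the 9 members over 12 animals, printed in each cell and coloured from -1 (blue) to 1 (red). Ins1, Ins2, Iapp and Pcsk1 form a block of high values, and Pcsk1n has negative values with all of them.

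For the same reason the log2 sum of Ins1 and Ins2 was set beside the mean log2 level of the acinar markers, which weighs each marker equally. The correlation was r = 0.59 and rho = 0.42 (permutation p = 0.041 and 0.18, adjusted 0.061 and 0.21), and r was 0.44 without WT replicate 4 and Wfs1HZ replicate 2. Leaving out single animals moved r between 0.41, without Wfs1HZ replicate 2, and 0.76, without Wfs1KO replicate 3. Beta cell markers other than the members summed to 163 to 376 RPKM in WT, 110 to 526 in Wfs1HZ and 123 to 224 in Wfs1KO. Of the 6 tested, 1 was higher in Wfs1KO than in WT, beside 57.4% of all transcripts, with a median difference of -0.77. At an unadjusted limma p under 0.05, 2 of the 6 lay lower in Wfs1KO than in WT, where 1.74% of all transcripts did. The lowest adjusted p was 0.835 by limma. Against Wfs1HZ 2 of the 6 lay lower at that threshold, where 2.45% of all transcripts were called in either direction. The factor Mafa, a defining marker, was listed at 0 in 10 of the 12 libraries and was not tested. The part of beta or acinar cell number in the member levels was not tested.

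The transcripts most like Ins2 and Pcsk1 across the 12 animals were sought among 13342 others whose mean RPKM reached 1. For Ins2 these were Plk3 (r = 0.97, 7.67 to 50.7 RPKM), Kcnh1 (0.95, 1.08 to 10.1 RPKM) and Fam151a (0.93, 1.43 to 6.77 RPKM), the first a polo-like kinase and the second a voltage-gated potassium channel. For Pcsk1 they were Bace2 (r = 0.91, 8.23 to 81.5 RPKM), an aspartic protease, and both copies of ribonuclease T2, Rnaset2b and Rnaset2a (0.90 each), whose near-identical sequences can share reads. The values describe likeness over these animals only.

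The rest of the prohormone pathway was read from 6 lists, and 0 genes of any list had an adjusted p under 0.05 or under 0.2 by limma in any comparison, beside 0.0461% of all transcripts under 0.2 in Wfs1KO against WT. Among 6 other proprotein convertases 3 were higher in Wfs1KO than in WT, with a median difference of 0.03. Of all tested transcripts 57.4% were higher in that comparison. Pcsk6, encoding PACE4, averaged 8.52 RPKM in WT and 4.23 in Wfs1KO, without overlap (adjusted p = 0.448 by limma, unadjusted 0.00066). Pcsk7 differed by -0.50 (adjusted p = 0.879 by limma), also without overlap, as 0.991% of all transcripts lay lower in that way. Furin, the ubiquitous convertase of the secretory pathway, averaged 10.6 and 13.3 RPKM, and like Mbtps1, Pcsk4 and Pcsk5 overlapped between the groups.

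Of 5 other carboxypeptidases and glutaminyl cyclases 4 were higher in Wfs1KO than in WT, with a median of 0.28. The lowest p-values belonged to Cpz and Cpm, which differed by 0.73 and 0.38 (adjusted p = 0.935 and 0.936 by limma).

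Among 12 proteins that fold proinsulin or serve the endoplasmic reticulum, 9 were higher in Wfs1KO than in WT. The median over the list was 0.36, beside 0.07 over all transcripts. Against Wfs1HZ 11 of 12 were higher in Wfs1KO, with a median of 0.45 beside 0.04. Of all transcripts 57.4% and 53.5% were higher in these comparisons, and the second share was 73.4% without Wfs1HZ replicate 2. At an unadjusted limma p under 0.05, 2 of 12 lay above WT in Wfs1KO, where 3.91% of all transcripts did, and 1 of 12 below, where 1.74% did. Pdia6, a disulfide isomerase, averaged 80.6 RPKM in WT and 145 in Wfs1KO, and Sdf2l1, a chaperone partner, 36.4 and 71.7 RPKM, both without overlap, as were 1.75% of all transcripts in that direction (adjusted p = 0.835 each by limma). The lower gene was Ero1lb, the beta cell form of the oxidase that drives disulfide formation, at 30.5 and 16.2 RPKM (adjusted p = 0.835 by limma), and it was named after its values were seen.

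Of 10 secretory granule proteins measured, 2 were higher in Wfs1KO than in WT, with a median of -0.26. Slc30a8, the granule zinc transporter that supplies zinc for insulin crystals, averaged 63.1 RPKM in WT and 25.2 in Wfs1KO, a difference of -1.51 (adjusted p = 0.835 by limma, unadjusted 0.00669). Ptprn2, a granule membrane protein, averaged 97.2 and 70 RPKM, a difference of -0.53 (adjusted p = 0.879 by limma).

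Of 9 tested transcription factors of the insulin gene 4 were higher in Wfs1KO than in WT, with a median of -0.18. Pax6 and Isl1 had the lowest p-values, with differences of -0.49 and -0.64 (adjusted p = 0.879 each by limma). Of 9 other islet peptide hormones 7 were higher in Wfs1KO than in WT, with a median of 0.38. Npy and Cck led by p-value with differences of 1.02 and 2.57 (adjusted p = 0.879 each by limma). Npy averaged 5.64 RPKM in WT and 12.2 in Wfs1KO, and Cck 5.8 and 15.5 RPKM. Both genes overlapped between these groups.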

How the data were processed

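RNA of hand-picked islets from 4 mice per genotype was amplified from 10 ng (Ovation RNA-Seq V2) and sequenced on a SOLiD 5500xl (75 and 35 bases, paired). The authors aligned them to mm10 using LifeScope, and deposited RPKM values for 24078 entries. The gene lengths and the rule for reads that fit several genes are not given in the sources used here.

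From these values log2(RPKM + 0.1) was compared pair by pair with limma 3.58.1 (R 4.3.3, variance trend, mean of at least 0.1 RPKM, 21701 transcripts, Benjamini-Hochberg adjustment over all of them). Fold changes on this scale understate those of low genes. Single values and ratios were compared with exact two-sided permutation tests, and correlations with 100000 resamples. The code was tested on simulated data. The members and lists were chosen with earlier results of these data known. A gene of the convertase list is not reported here, and that list is described without it. The genes named were the 9 members, from each pathway list the 2 with the lowest p in Wfs1KO against WT and any with an adjusted p under 0.2, and the 3 transcripts most like Ins2 and Pcsk1, with others named as such or only for their overlap. Alternatives were other pseudocounts, filters, scalings, variance models, a replicate block and leaving out each animal. Estimated reads per library ran from 2191000 to 9557000, and 3 reads on a 2 kb transcript correspond to 0.157 to 0.685 RPKM.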

Additional observations from a re-analysis of the deposited data

Results flagged for a closer look

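The Cpe level in WT replicate 1, 1134 RPKM, stood apart from the other WT animals, which read 953.01 to 981.12 RPKM. Its gap to the nearest animal was 0.845 of the group's range, above the critical value for a group of that size. It was the only such value in 51 groups examined, and chance alone marks about 1 in 20 groups.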

How the results depend on the processing

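The count of members with an adjusted p under 0.05 stayed at 0 in all 3 comparisons under each of 11 alternative fits and 8 fits that left out an animal. At most 5 transcripts were called in any of these fits, so a steady count of 0 says little about the members. Replicate numbers are shared between genotypes, but deviations of same-numbered animals correlated by -0.17 to 0.23, so they do not pair the animals. With a replicate block, the difference of Iapp relative to insulin in Wfs1KO against Wfs1HZ is 0.84 by construction, and its permutation p was 0.12, the smallest that 4 pairs allow. The adjusted p of Wfs1 in Wfs1KO against WT was 0.541 with the block, and the counts of members with an adjusted p under 0.05 were 0.

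Quantile normalization, which ties the most abundant transcripts to shared ranks, gave 0.57 for that Iapp ratio, and correlations of 0.04 for Ins1 with Ins2, -0.02 for Pcsk2 with Scg5 and 0.15 for insulin with the acinar markers. The last was 0.59 within genotypes, no longer past the threshold. With sample weights Ins1 differed by 0.04 in Wfs1KO against WT, -0.07 in Wfs1KO against Wfs1HZ and 0.07 in Wfs1HZ against WT, Ins2 by 0.28 in Wfs1HZ against WT and Pcsk1 by -0.22 in Wfs1KO against Wfs1HZ. In Wfs1KO against Wfs1HZ median-of-ratios scaling gave -0.04 for Ins1 and -0.08 for Pcsk1, and a pseudocount of 1 gave -0.01 for Pcsk1. The cause was not tested.

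Leaving out single animals gave these ranges of log2 differences. In Wfs1KO against WT Ins1 reached -0.07 without WT replicate 4, and the ranges were -0.65 to -0.01 for Iapp and -0.13 to 0.26 for Scg5, and relative to insulin -0.39 to 0.14 for Pcsk1, 0.01 to 0.91 for Pcsk2 and -0.01 to 0.85 for Cpe. In Wfs1HZ against WT they were -1.07 to 0.21 for Ins1, -0.87 to 0.27 for Ins2 and -0.10 to 0.36 for Pcsk1n, and relative to insulin -0.69 to 0.35 for Pcsk2 and -0.43 to 0.70 for Cpe. In Wfs1KO against Wfs1HZ they were -0.73 to 0.55 for Ins1, -0.05 to 0.92 for Iapp, -0.36 to 0.28 for Pcsk1, -0.15 to 0.19 for Cpe and -0.00 to 0.69 for Pcsk1n. In the same comparison the ratios ran from 0.71 to 0.95 for Iapp and -0.28 to 0.85 for Cpe relative to insulin, from -0.19 to 0.85 for Pcsk1n to Pcsk1 and from -0.01 to 0.28 for Scg5 to Pcsk2. With 3 against 4 animals the exact permutation p cannot go below 0.057. The correlation of insulin with the acinar markers ran from 0.41 to 0.76.

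Depth limits Pcsk1 and Pcsk1n most, with as few as 12.6 and 24.8 reads per kilobase. For the hormones the spread between animals, not depth, limits what can be seen.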

Other observations

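Marker genes of other islet and pancreas cells were read alongside the members, and 0 of them had an adjusted p under 0.05 by limma in any comparison. In Wfs1KO against WT the mean log2 level was higher for 0 of 6 alpha cell markers, 1 of 4 delta cell markers, the PP cell marker Ppy, 3 of 6 ductal markers, 5 of 5 endothelial markers, 5 of 6 stromal markers and 5 of 6 immune markers. Dcn, a stromal matrix proteoglycan chosen after its values were seen, averaged 20.2 RPKM in WT and 52.2 in Wfs1KO without overlap (adjusted p = 0.435 by limma). Cdh5, the endothelial cadherin and likewise chosen after its values were seen, averaged 11.9 and 28.5 RPKM, also without overlap (adjusted p = 0.5 by limma). The summed stromal markers ran from 17.7 to 53.5 RPKM in WT, 12 to 341 in Wfs1HZ and 54.7 to 122 in Wfs1KO. The alpha cell sum, mostly Gcg, ran from 60804 to 185662 RPKM in WT, 58598 to 157648 in Wfs1HZ and 50953 to 220995 in Wfs1KO, so it overlapped between all genotypes.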
